A study of Mus musculus with 13 samples.

Results

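Integrins are cell-surface receptors made of an alpha and a beta subunit, and this account follows the transcripts of their subunits and of the proteins that link them to the cytoskeleton across the resident cells of the mouse liver. The genes were taken by symbol: 18 alpha subunits, 8 beta subunits, the integrin-like secreted protein gene Itgbl1, the inhibitor gene Itgb1bp1, 5 talin and kindlin genes, and 2 kinase or pseudokinase genes, Ilk and Ptk2. Of these 35 genes, 34 were measured, among 19537 genes with a symbol, and Ptk2 was not analysed here. Expression was measured on 13 Affymetrix arrays with biotin-labelled cRNA from naive C57BL/6 mice aged 6 to 10 weeks, for which the labels name no transgene and no treatment. Hepatocytes, Kupffer cells (the resident macrophages) and liver sinusoidal endothelial cells (LSEC) were freshly isolated, with 3 arrays each. Stellate cells of the liver (HSC), which lie beside the sinusoids and can become myofibroblasts, were all cultured with serum. Their 4 arrays comprise 2 from day 1 and 1 each from day 7 and day 14. Uncultured HSC were not analysed here, so cell type and culture cannot be told apart in any comparison of HSC with the other cells.

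An integrin subunit reaches the surface only as part of a pair, and the alpha subunit largely sets which ligand is bound. The beta1 subunit pairs with many alpha subunits to bind collagens, laminins and fibronectin, alphav pairs with several beta subunits to bind ligands with an RGD sequence, and the beta2 integrins are receptors of leukocytes. Inside the cell, talins and kindlins bind the beta subunit tail and switch the receptor to its active state, Ilk joins it to actin through the parvin adaptors, and Itgb1bp1 competes with talin for the beta1 tail. In fibrotic liver, alphav integrins of stellate cells are known for releasing active TGF-beta from its latent complex.

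Values are probe-set intensities on a linear scale, with medians of 216.5 to 232.9 per array. The pooled median over all arrays, 224.5, serves as a reference for low signal, since no detection calls were used here. Levels are compared between cells for 1 gene, never between genes, because probe sets differ in brightness. The defining markers matched the labels: of 10 markers each, all 10 stood above the pooled median on every array of hepatocytes, Kupffer cells and LSEC, and 9 of the stellate cell markers did so in 1-day HSC. Stellate cell markers summed to 25070 to 29910 on the HSC arrays and at most 2561 elsewhere, and myofibroblast genes to 29680 and 35440 at day 1, 76960 at day 7 and 82100 at day 14. Other markers were also read. The summed hepatocyte markers were 10010 and 16420 on the 1-day HSC arrays, 1276 at day 7 and 1245 at day 14, against 126000 to 132100 in hepatocytes. The summed LSEC markers went from 10660 and 11490 to 1965 and 2182 over the same arrays, stood at 12960 to 15230 in Kupffer cells, and were lower in LSEC replicate 3 (45430) than in replicates 1 and 2 (67380 and 61700). The summed Kupffer cell markers were 97500 to 99300 in Kupffer cells, 3547 to 6139 on the 4 HSC arrays and 1572 to 3208 elsewhere. On every array of each HSC group 6 of these 10, Vsig4, Adgre1, Csf1r, C1qa, C1qb and C1qc, stood above the pooled median. Clec4f, Timd4, Cd5l and Marco were not above it on all arrays of any HSC group.

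**Figure D1:**
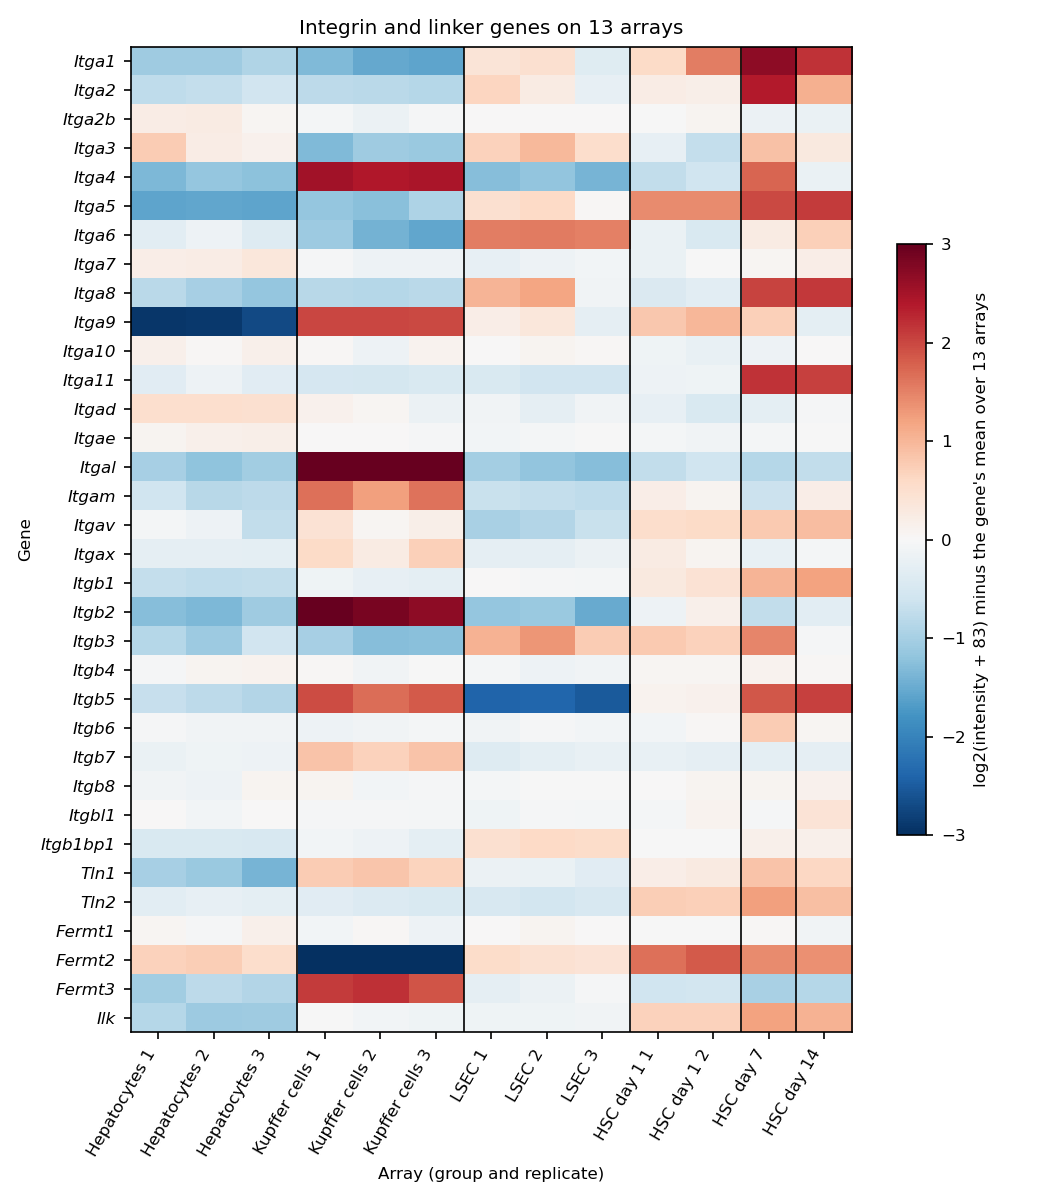
Each row is a gene and each column an array; colour gives log2(intensity + 83) minus the gene's own mean over the 13 arrays, with values beyond 3 drawn in the darkest shade. Itgal, Itgb2, Itga4 and Fermt3 are dark red on the 3 Kupffer cell arrays where Fermt2 is dark blue, and Itga8 and Itga11 are red at days 7 and 14 of HSC culture.

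The first comparison asked which integrin transcripts set the populations apart. It was fitted with limma on log2(intensity + 83) for the 11 arrays of hepatocytes, Kupffer cells, LSEC and 1-day HSC, and a gene was called at a Benjamini-Hochberg adjusted p below 0.05 over all 12081 genes with a log2 difference of at least 1. Of the 34 measured genes, 28 passed the filter on low intensity. Kupffer cells differed from LSEC in 17 of them, 9 higher (background 9.54%) and 8 lower (10.3%), against 19.8% of all genes called in either direction. Against 1-day HSC, Kupffer cells differed in 15 (background 24.6%), with 8 higher (11.7%) and 7 lower (12.9%). Hepatocytes differed from Kupffer cells in 11 (background 25.7%), 3 higher (12.0%) and 8 lower (13.7%). They differed from LSEC in 8 (22.5%), 1 higher (10.0%) and 7 lower (12.5%), and from 1-day HSC in 10 (22.4%). LSEC and 1-day HSC differed in 9, against a background of 10.8%, with 3 higher in LSEC (5.24%) and 6 higher in 1-day HSC (5.60%). In all, 22 of the 28 were called in at least 1 of the 6 contrasts (background 46.5%), and 12 were higher in 1 population than in each other (18.3%). Of the 28, 8 passed the filter only through the population in which they were highest: Itga4, Itgal, Itgax and Itgb7 through Kupffer cells, Itga7 and Itga10 through hepatocytes, Itga8 through LSEC and Tln2 through 1-day HSC. These 8 were tested only because of their level in that population, so their differences between populations are given without a p-value. The counts are descriptions of the 28 genes rather than of all 34. The contrasts share arrays and are not independent of each other.

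In Kupffer cells 7 of the 28 tested genes were higher than in each other population (background 6.53%): Itgal, Itgb2, Itgam, Itga4, Itga9, Itgb5 and Fermt3. Among them, Itgal and Itga4 were tested only because of their Kupffer cell level. Itgal encodes the alpha subunit of the leukocyte receptor LFA-1. It read 4693, 4239 and 3931 in Kupffer cells, 198 and 229 in 1-day HSC, 121 to 154 in hepatocytes and 110 to 151 in LSEC. Every Kupffer cell array lay far above all others, with a mean 20.1 times that of 1-day HSC. On the log2 scale they differed by 3.88 (SE 0.11). In these bulk samples fewer cells of a type and less RNA per cell cannot be told apart.

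Itgb2, the shared beta subunit of the leukocyte integrins, read 5320, 4876 and 4345 in Kupffer cells and 532 and 673 in 1-day HSC, and the log2 values differed by 2.85 (SE 0.14, adjusted p = 3.2e-09). The hepatocyte arrays read 188 to 244 and the LSEC arrays 159 to 231, so 1-day HSC stood between these cells and Kupffer cells. The 1-day HSC level was also called higher than that of hepatocytes, by 1.22 (adjusted p = 8.8e-06), and of LSEC, by 1.25 (adjusted p = 1.7e-05). On HSC arrays Itgb2 ran from 325 at day 7 and 469 at day 14 to 532 and 673 at day 1, and the summed Kupffer cell markers from 3547 and 5625 to 4564 and 6139 on the same arrays. Their part in the Itgb2 signal of HSC was not tested.

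Itgam, the alpha subunit of complement receptor 3, read 878, 640 and 864 in Kupffer cells. It read 268 and 243 in 1-day HSC, and 89.4 to 119.8 in hepatocytes and LSEC. The log2 difference from 1-day HSC was 1.36 (SE 0.12, adjusted p = 8.6e-07). The other alpha partners of Itgb2 lay close by. Itgax, the CD11c subunit, averaged 248 ± 53 (SD, n = 3) in Kupffer cells and 175 ± 19 (n = 2) in 1-day HSC, and differed by 0.35, below the minimum difference. Itgad averaged 472 ± 8.0 in hepatocytes and 314 ± 41 in Kupffer cells, and its other probe set stayed below the pooled median, at 81.6 to 128.8, and correlated with the used one at only 0.20 over the 13 arrays. Itgal, Itgam, Itgax and Itgad all lie on chromosome 7, and of these Itgal and Itgam were called in Kupffer cells. The 3 probe sets that list Itgam together with the ribosomal gene Rpl35 read 4264 to 7759 on all arrays and were not used.

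The genes for alpha4 and beta7 followed the same cells. Itga4, whose product pairs with beta1 or beta7 and binds VCAM1, read 2629, 2429 and 2485 in Kupffer cells against 201 and 231 in 1-day HSC and 98.1 to 130.3 in hepatocytes and LSEC. The log2 difference from 1-day HSC was 3.12 (SE 0.094). Its beta7 partner gene Itgb7 was also highest in Kupffer cells, at 428, 369 and 422 against 131 to 173 on the other arrays of the comparison. Kupffer cells exceeded LSEC and 1-day HSC in Itgb7 by 1.10 and 1.05, and hepatocytes by 0.96, short of the minimum difference. T and NK cell markers on the Kupffer cell arrays summed to 1022 to 1261, against 932 to 1046 in hepatocytes, with Cd3e alone of 9 above the pooled median on every array of either group. B cell markers summed to 2332 to 3893 in Kupffer cells, with 3 of 7 above the pooled median, against 705 to 979 in the other populations. Neutrophil markers summed to 1881 to 2018 (1 of 8 above, Csf3r) against 535 to 740.2, and dendritic cell and monocyte markers to 3697 to 4698 (2 of 7 above) against 819 to 1906. The part of such cells in the Kupffer cell values of the leukocyte integrins was not tested.

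Itga9, a subunit for tenascin and VCAM1, was spread across all cells but hepatocytes. It read 6919, 6942 and 6810 in Kupffer cells, 2970 and 3399 in 1-day HSC, 1933, 2130 and 1358 in LSEC, and 148, 150.4 and 183 in hepatocytes. The groups did not overlap, and Kupffer cells were 2.16 times as high as 1-day HSC, a log2 difference of 1.10 (SE 0.15, adjusted p = 3.7e-05). Itga9 was the gene called lower in hepatocytes than in each other population (1 of 28, background 2.72%), by 2.94 or more on the log2 scale (largest adjusted p = 1.4e-09). Itgb5, which joins alphav in a vitronectin receptor, read 5908, 4843 and 5392 in Kupffer cells, 1581 and 1596 in 1-day HSC, 759 to 871 in hepatocytes and 184, 209 and 212 in LSEC. It was called higher in Kupffer cells, by 1.70 over 1-day HSC (SE 0.098, adjusted p = 1.3e-08), and lower in LSEC than in each other population (1 of 28, background 0.406%), by at least 1.66 (largest adjusted p = 5.1e-09).

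**Figure D2:**
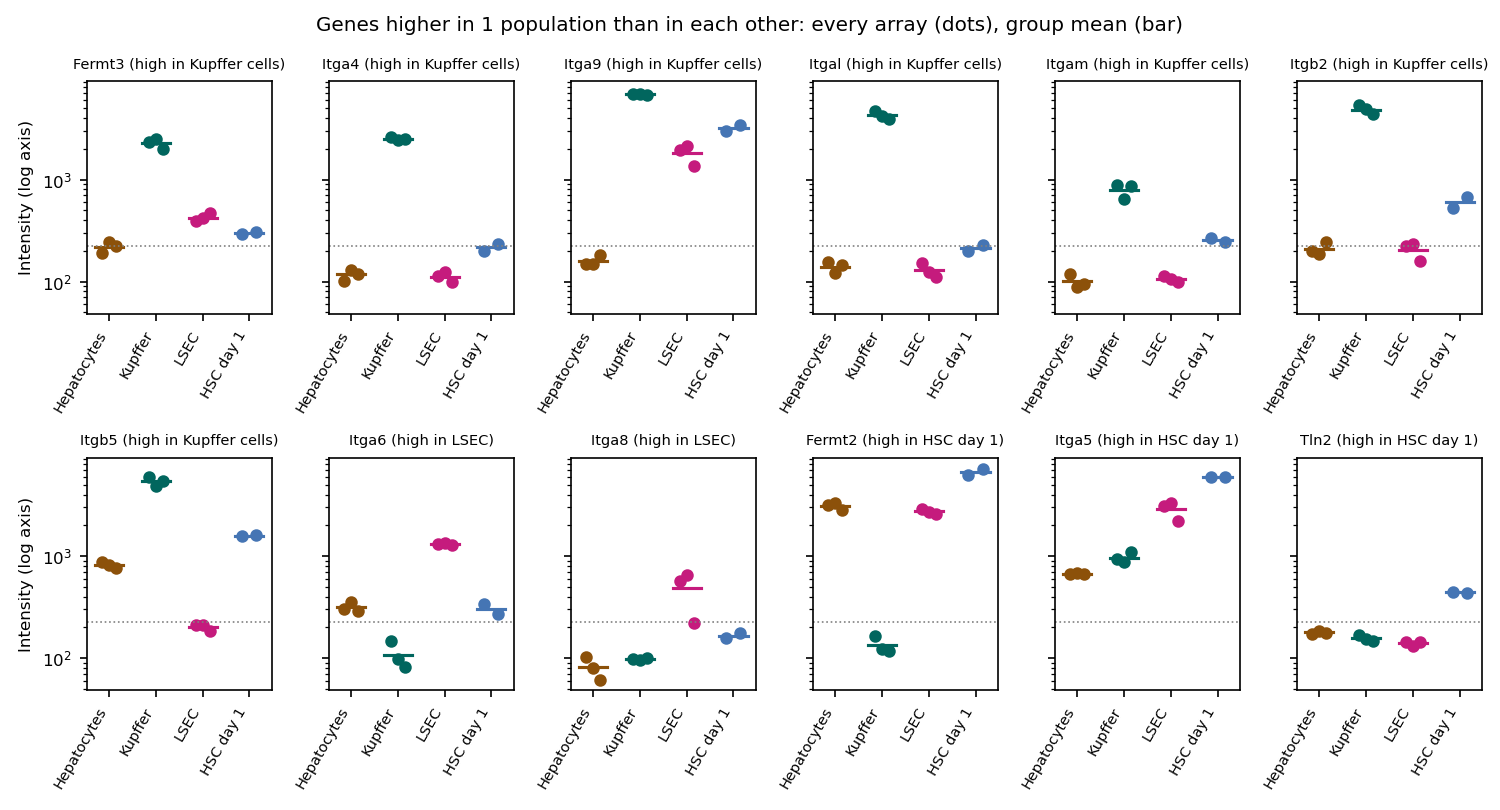
Intensity on a log axis for the 12 genes higher in 1 population than in each other, with a dot for each of the 11 arrays of hepatocytes, Kupffer cells, LSEC and 1-day HSC, a bar at the group mean and a dotted line at the pooled median of 224.5. In each panel the arrays of the named population lie above the other arrays plotted; LSEC replicate 3 is the low dot for Itga8 and Itga5.

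The promoters of 25 of the 35 genes were held in a RefSeq table (GRCm38.p6), 5 of them among the 7 Kupffer cell genes. The window searched was the 250 bases before each gene's start, on both strands. The PU.1 core GAGGAA, a motif of a macrophage transcription factor, stood in 23.3% of all 32851 windows and in 1 of the 5 (Itgam). The RUNX core TGTGGT stood in 14.0% of all windows and in 2 of the 5 (Itga4 and Fermt3). These windows are shown 5' to 3' because their genes were high on the same arrays, with the matches (TTCCTC and ACCACA on the other strand) in capitals. A match is a description of the letters and not a binding site.
Itgam (chr7:128062390-128062639, plus strand): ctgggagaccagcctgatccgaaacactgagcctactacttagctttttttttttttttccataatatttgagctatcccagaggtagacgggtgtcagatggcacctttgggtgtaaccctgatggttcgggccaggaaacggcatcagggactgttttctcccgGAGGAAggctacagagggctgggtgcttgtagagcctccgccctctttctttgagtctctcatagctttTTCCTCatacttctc
Itga4 (chr2:79255176-79255425, plus strand): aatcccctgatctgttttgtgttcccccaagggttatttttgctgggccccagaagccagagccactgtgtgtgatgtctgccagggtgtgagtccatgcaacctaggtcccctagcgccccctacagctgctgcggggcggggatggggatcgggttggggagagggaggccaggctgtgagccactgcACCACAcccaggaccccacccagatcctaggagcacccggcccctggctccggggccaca
Fermt3 (chr19:7019470-7019719, minus strand): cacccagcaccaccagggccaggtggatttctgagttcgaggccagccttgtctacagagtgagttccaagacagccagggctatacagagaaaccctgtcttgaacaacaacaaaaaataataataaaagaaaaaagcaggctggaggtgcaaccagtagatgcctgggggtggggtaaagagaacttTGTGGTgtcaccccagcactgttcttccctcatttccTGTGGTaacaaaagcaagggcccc

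In LSEC, 2 of 28 genes were higher than in each other population (background 2.35%), the laminin receptor subunit gene Itga6 and the RGD receptor subunit gene Itga8, which was tested only because of its level on LSEC replicates 1 and 2. Itga6 read 1316, 1347 and 1296 in LSEC, 286 to 354 in hepatocytes, 341 and 271 in 1-day HSC and 80.9 to 146 in Kupffer cells. The LSEC arrays were tightly grouped and 4.19 times as high as hepatocytes, or 1.82 on the log2 scale (SE 0.12, adjusted p = 4.2e-08). Itga6 was also lower in Kupffer cells than in each other population, by at least 1.03 (largest adjusted p = 2.3e-05). That call was lost without Kupffer cell replicate 2 or 3, hepatocyte replicate 2 or HSC day 1 replicate 1, where the smaller difference was between 0.90 and just under 1. Itga8 read 569, 656 and 219 in LSEC against 157 and 175 in 1-day HSC, and its LSEC arrays were widely spread. Its log2 difference was 1.08 (SE 0.28), and 1.48 without LSEC replicate 3. Without LSEC replicate 1 or 2, Itga8 did not pass the filter on low intensity, and without HSC day 1 replicate 1 it was not called.

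Other subunits were shared by LSEC and 1-day HSC. Itgb3, the beta subunit of the vitronectin and fibrinogen receptors, read 1410, 1719 and 1152 in LSEC and 1167 and 1079 in 1-day HSC, against 216 to 406 in hepatocytes and Kupffer cells. LSEC and 1-day HSC overlapped, with a difference of 0.31 (SE 0.17, adjusted p = 0.15). Both were called higher than hepatocytes, by 1.88 and 1.57, and than Kupffer cells, by 2.22 and 1.92. Itga1 and Itga2, the collagen receptor subunits, also read higher in LSEC and 1-day HSC than in the other cells, though not every contrast was called. Itga1 read 531, 563 and 281 in LSEC, 617 and 1275 in 1-day HSC, 139.8 to 166 in hepatocytes and 73.2 to 102 in Kupffer cells. The difference between LSEC and 1-day HSC was 0.89 (SE 0.26, adjusted p = 0.015), below the minimum, and the 1-day HSC arrays differed widely from each other. Itga2 averaged 453 ± 158 in LSEC and 436 ± 12 in 1-day HSC. Both exceeded hepatocytes by 0.90, below the minimum, and both were called over Kupffer cells, by 1.03 each. Without LSEC replicate 1 the Itga2 difference of LSEC from Kupffer cells was 0.82, below the minimum. LSEC replicate 3, the array with the lowest LSEC marker sum, was the lowest LSEC array for Itga1, Itga2, Itga3, Itga5, Itga8, Itga9 and Itgb3, and the part of that lower sum in these values was not tested. Itga3, a laminin receptor subunit, averaged 846 ± 148 in LSEC and 645 ± 182 in hepatocytes, with overlapping arrays, against 162 ± 23 in Kupffer cells. LSEC exceeded 1-day HSC (318 ± 94) in Itga3 by 1.22 (SE 0.20, adjusted p = 0.00033), and by 0.98 without HSC day 1 replicate 2, below the minimum.

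In 1-day HSC, 3 of 28 genes were higher than in each other population (background 2.59%): the fibronectin receptor subunit gene Itga5 and the linkers Fermt2 and Tln2, of which Tln2 was tested only because of its 1-day HSC level. Itga5 read 5958 and 5966 in 1-day HSC, 3065, 3332 and 2221 in LSEC, 866 to 1097 in Kupffer cells and 666 to 677 in hepatocytes. The groups did not overlap, and 1-day HSC exceeded LSEC by 1.05 (SE 0.15, adjusted p = 9.0e-05). Without LSEC replicate 3 the difference was 0.88 and below the minimum. Itgb1, the common beta subunit, had its lowest values in hepatocytes (1811 to 1865) and its highest in 1-day HSC (3864 and 4246), with Kupffer cells at 2519 to 2853 and LSEC at 3015 to 3168. The 4 groups were in separate ranges, but the contrast of 1-day HSC with hepatocytes (1.10, SE 0.083, adjusted p = 1.8e-07) was the one that reached the minimum. Itgav averaged 4416 ± 110 in 1-day HSC, 3545 ± 500 in Kupffer cells, 2429 ± 593 in hepatocytes and 1638 ± 201 in LSEC. LSEC was called lower than 1-day HSC, by 1.39 (adjusted p = 5.8e-05), and than Kupffer cells, by 1.07 (adjusted p = 8.8e-05, and 0.97 without Kupffer cell replicate 1), while 1-day HSC and Kupffer cells did not pass (0.32, SE 0.18, adjusted p = 0.14).

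In hepatocytes limma called 0 of 28 genes higher than in each other population (background 6.80%). With no minimum difference, Itgad exceeded all other groups of this fit in hepatocytes, at an unadjusted and an adjusted p below 0.05. This rests on the used Itgad probe set, as the other one stayed below the pooled median. Itga7 was also highest in hepatocytes, but it was tested only because of its level there, so its p-value is left out. Itga7, a laminin receptor subunit known from muscle, averaged 249 ± 18 in hepatocytes and 168 to 176 in the other populations, a difference of 0.36 to 0.41. Itgad differed by 0.49 to 0.84. Against 1-day HSC 0 genes were higher in hepatocytes (background 10.1%), and 10 were lower (background 12.3%): Fermt2, Ilk, Itga1, Itga5, Itga9, Itgb1, Itgb2, Itgb3, Tln1 and Tln2. Without the minimum difference, Itga3 and Itgad were higher in hepatocytes than in 1-day HSC at an unadjusted p below 0.05. Itga7 and Itga10 were higher too, but they passed the filter through hepatocytes alone, so no p-value is given for them. In the other direction, limma called 0 of 28 genes lower in 1-day HSC than in each other population (background 0.281%), and 0 at an unadjusted p below 0.05.

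The linker genes differed in kind as well as in level. Fermt3, the kindlin of blood cells, read 2332, 2516 and 2013 in Kupffer cells, 388 to 469 in LSEC, 294 and 304 in 1-day HSC and 192 to 243 in hepatocytes. Kupffer cells exceeded LSEC by 2.22 (SE 0.10, adjusted p = 1.1e-09), 5.39 times by the means. Fermt2, the kindlin of most adherent cells, ran the other way, at 165, 122 and 117 in Kupffer cells, below the pooled median. Fermt2 read 6259 and 7196 in 1-day HSC, 2845 to 3276 in hepatocytes and 2610 to 2891 in LSEC. Kupffer cells were called lower in Fermt2 than each other population (with Itga6, 2 of 28, background 2.28%), by at least 3.70 (largest adjusted p = 9.8e-12). The 1-day HSC arrays were higher than hepatocytes by 1.10 (SE 0.11, adjusted p = 3.0e-06), which fell to 0.996 without HSC day 1 replicate 2. Hepatocytes and LSEC did not pass (0.17, SE 0.10, adjusted p = 0.14). Fermt1, the kindlin of epithelia, read 49.2 to 79.7 on all arrays and was not tested.

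The Fermt2 window is shown because it holds a CArG box, the motif of serum response factor, which stood in 1.47% of all windows and in 2 of the 25 members' windows (Fermt2 and Itgb6). It begins 204 bases before the gene's start and is in capitals.
Fermt2 (chr14:45530066-45530315, minus strand): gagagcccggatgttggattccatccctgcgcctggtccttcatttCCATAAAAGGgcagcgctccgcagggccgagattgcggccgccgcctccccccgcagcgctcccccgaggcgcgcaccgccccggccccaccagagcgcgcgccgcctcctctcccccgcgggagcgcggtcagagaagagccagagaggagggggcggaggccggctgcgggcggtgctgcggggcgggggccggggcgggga

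Tln1, the talin of most cells, read 3732, 3914 and 3526 in Kupffer cells, 2507 and 2649 in 1-day HSC, 1692 to 1922 in LSEC and 781 to 1043 in hepatocytes. The order had no overlap, and hepatocytes were called lower than Kupffer cells by 1.92 (SE 0.10, adjusted p = 3.0e-09) and than 1-day HSC by 1.41. Tln2, the second talin, stood above the pooled median in HSC and on no other array. It read 445 and 438 in 1-day HSC, 174 to 185 in hepatocytes, 147 to 168 in Kupffer cells and 133 to 145 in LSEC. Its difference from hepatocytes was 1.003 (SE 0.077), at the edge of the minimum. It was just below 1 without hepatocyte replicate 1 or 3, and 0.87 or less against all 3 populations with the pooled median as pseudocount. With 1 of the 2 arrays of 1-day HSC left out, Tln2 did not pass the filter on low intensity. Ilk averaged 3464 ± 26 in 1-day HSC, 2003 ± 76 in Kupffer cells, 1939 ± 27 in LSEC and 1016 ± 96 in hepatocytes, and was called in the contrast of 1-day HSC with hepatocytes (1.69, SE 0.086, adjusted p = 5.0e-09). Itgb1bp1 read 723, 778 and 760.5 in LSEC, 485 and 486 in 1-day HSC, 387 to 456 in Kupffer cells and 330 to 337 in hepatocytes. LSEC exceeded hepatocytes in Itgb1bp1 by 1.004 (SE 0.073, adjusted p = 1.0e-07), by 0.89 after quantile normalization, and by 0.98 to just under 1 without hepatocyte replicate 3, LSEC replicate 2 or LSEC replicate 3, each below the minimum.

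The remaining members were low or level. Itgae, Itgb6, Itgb8, Itgbl1 and Fermt1 were not above the pooled median on any of the 13 arrays, and Itga11 was above it only at days 7 and 14 of culture, so these 6 genes were not tested between populations. Itgb6, an epithelial partner of alphav, read 165 at day 7 and 48.7 to 70.7 on the other 12 arrays. Itgb8, the other beta partner of alphav that releases TGF-beta, read 81.7 to 120.1. Itgb4, the hemidesmosome subunit, read 199.5 to 257.7 and was called by limma in 0 of the 6 contrasts, with 1 at an unadjusted p below 0.05. Itga2b, the platelet subunit, read 260.5 to 390.2. Platelet markers summed to 7370 to 8969 on the Kupffer cell arrays and to 964 to 2918 elsewhere. Of 6, 4 were above the pooled median on every Kupffer cell array, Pf4, Ppbp, Treml1 and Clec1b, while Gp9 and Gp5 were not. Treml1 was above it on every array of every group, and Clec1b on every LSEC array as well. Of 5 tested, 2 were higher in Kupffer cells than in each other population (background 6.53%), Clec1b by at least 1.98 and Ppbp by at least 1.38. Pf4 was furthest above hepatocytes in 1-day HSC, by 1.79. The part of platelets in these values was not tested. Itga2b averaged 291 ± 20 in Kupffer cells and 366 ± 32 in hepatocytes. Itga10, a collagen receptor subunit of cartilage, read 159 to 230 on all arrays.

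A receptor needs both subunits, so the 24 known pairs were read for transcripts above the pooled median on every array of a group. By that description 9 pairs were present in hepatocytes, 9 in Kupffer cells, 9 in LSEC, 12 in 1-day HSC, 15 at day 7 and 17 at day 14. A group with 1 array meets the condition more easily than a group with 3. With the pooled 60th percentile (334.9) as the limit, the counts were 4, 8, 6, 7, 12 and 11. Itga2b with Itgb3, Itga6 with Itgb4, Itgad with Itgb2 and Itga7 with Itgb1 were counted in 5, 4, 3 and 2 groups at the pooled median. At the 60th percentile each was counted in 0. A single limit for all genes takes no account of differences in probe-set brightness, and the share of other gene pairs meeting it was not counted. Itga5 with Itgb1 and Itgav with Itgb1 were present in all 6 groups at both limits. Kupffer cells alone held Itgal with Itgb2 and Itga4 with Itgb7 at both limits. Days 7 and 14 of culture, with 1 array each, alone held Itga8 with Itgb1 and Itga11 with Itgb1. In LSEC Itga8 read 569, 656 and 219, so replicate 3 alone kept Itga8 with Itgb1 from being counted there, just below the lower limit of 224.5. Itgav with Itgb5 was absent by this measure from LSEC alone, and Itgav with Itgb3 from Kupffer cells alone at the lower limit. No test was applied.

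**Figure D3:**
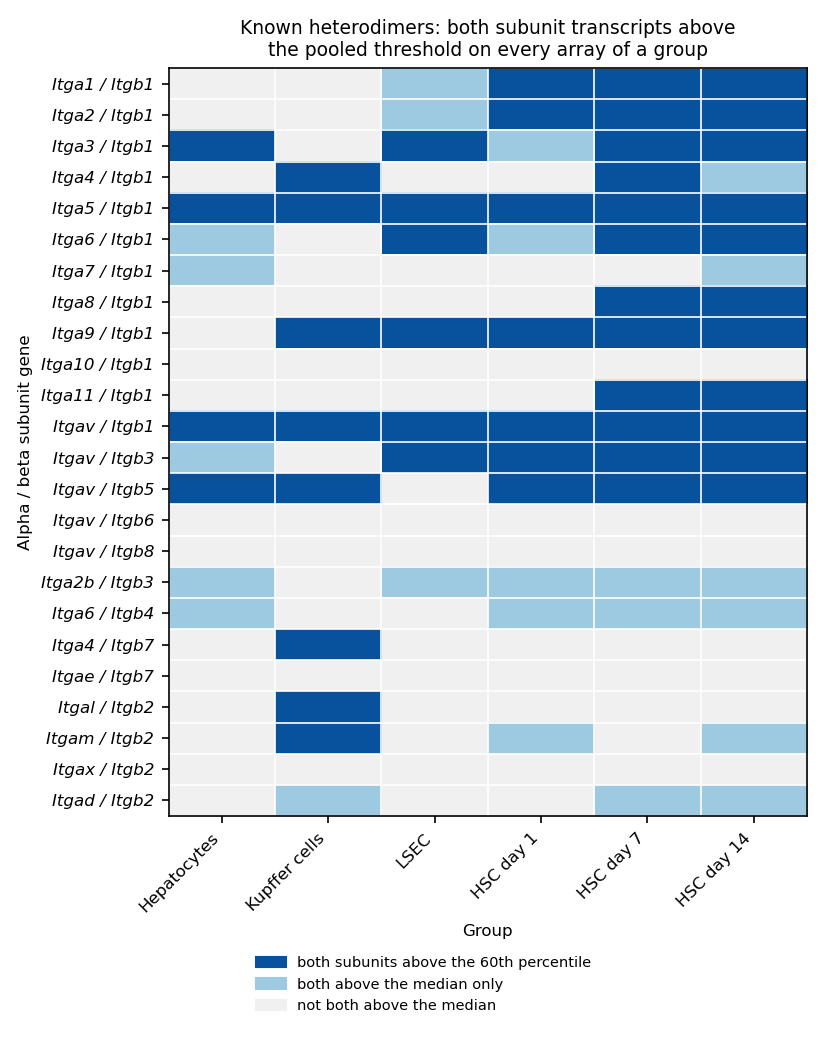
Rows are the 24 known alpha and beta pairs, columns the 6 groups; dark blue marks pairs with both transcripts above the pooled 60th percentile on every array of the group, light blue those above the pooled median only. The 2 columns of long-cultured HSC hold 15 and 17 coloured cells, and Itga4 with Itgb7, Itgal with Itgb2 and Itgam with Itgb2 are dark in the Kupffer cell column alone.

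The second comparison asked how integrin transcripts of HSC differed between 1 day and longer culture. The day 7 and day 14 arrays were set together against the 2 arrays of day 1, in a limma fit of all 13 arrays and 12368 genes, of which 29 were members. The spread therefore came mostly from the freshly isolated cells, and the p-values do not measure the spread between HSC cultures alone. In either direction 9.79% of all genes were called. Of the 29, 7 were higher after long culture (background 5.52%) and 0 lower (background 4.27%): Itga8, Itga11, Itgb5, Itga2, Itga4, Itga1 and Itga3. Of these, Itga11 passed the filter only through the day 7 and day 14 arrays, so it was tested only because of its level there. The count and the median below describe the 29 genes. Without the minimum difference, 6 were lower at an unadjusted p below 0.05 and 4 at an adjusted one, Fermt2, Fermt3, Itga9 and Itgb2. The median log2 difference over the 29 was 0.24, against -0.04 over all genes. The hepatocyte and LSEC markers read on the day 1 arrays, given above, were lower on the later arrays, and cholangiocyte and mesothelial markers were higher (1445 and 1481 at day 1, 2372 at day 7, 2560 at day 14). Their part in these changes was not tested.

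Itga8, a known receptor subunit for nephronectin and other RGD ligands, read 157 and 175 at day 1, 1232 at day 7 and 1317 at day 14. It rose by 2.45 on the log2 scale (SE 0.30, adjusted p = 3.8e-05), 7.42 and 7.93 times the day 1 mean. Both long-culture arrays also lay above the highest LSEC array, at 656. Itga11, the subunit for fibrillar collagen on fibroblasts, read 182 and 186 at day 1, then 1243 (day 7) and 1141 (day 14), and differed by 2.25 (SE 0.093). On the 9 arrays of freshly isolated cells it read 115 to 181, so it stood above the pooled median in long culture alone. Itgb5 read 1581 and 1596 at day 1, then 5522 and 6340, a rise of 1.84 (SE 0.11, adjusted p = 9.8e-08). The day 7 array lay within the range of the Kupffer cell arrays and the day 14 array above it.

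The Itga11 window is shown as that of a gene seen in long culture alone. It holds the same PU.1 core as the Itgam window (TTCCTC, on the other strand, in capitals). That core stood in 2 of the 7 genes that rose, Itga11 and Itga3, in 9 of the 25 members' windows and in 23.3% of all windows. The RUNX core also stood in 2 of the 7, Itga3 and Itga4, against 14% of all windows.
Itga11 (chr9:62677605-62677854, plus strand): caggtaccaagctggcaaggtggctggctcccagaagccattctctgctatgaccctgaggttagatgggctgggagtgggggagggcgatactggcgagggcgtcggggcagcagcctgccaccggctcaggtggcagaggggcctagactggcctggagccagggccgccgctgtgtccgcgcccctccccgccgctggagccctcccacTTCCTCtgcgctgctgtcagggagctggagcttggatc
Of the 7 genes that rose, 7 had a window, and the TEAD core GGAATG (12.6% of all windows), the AP-1 motif TGANTCA (6.75%) and the CArG box were found in 0 of them. The SP1 motif GGGCGG (32.7% of all windows) stood in 3, Itga3, Itga4 and Itgb5. Absence says only that these letters are not in these 250 bases.

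The other 4 genes that rose were highest at day 7 and lower at day 14. Itga4 read 201 and 231 at day 1, 1497 at day 7 and 326 at day 14, so its call (1.43, SE 0.40, adjusted p = 0.012) rested on the day 7 array. With day 14 alone the difference was 0.45, and it did not pass with the spread of the 4 HSC arrays alone (adjusted p = 0.13) or without HSC day 1 replicate 1 (adjusted p = 0.059). The day 7 array had the lowest Itgb2 (325) and Itgam (115) of the HSC arrays. Itga2 read 445 and 427, then 2271 and 857, a difference of 1.52 (SE 0.33, adjusted p = 0.0024), and of 0.86 with day 14 alone. Itga1 read 617 and 1275, then 2920 and 2015 (1.36, SE 0.30, adjusted p = 0.0027), and both long-culture arrays lay above both of day 1. Without HSC day 1 replicate 1 the Itga1 difference was 0.89, below the minimum. Itga3 read 385 and 251, then 934 and 589 (1.06, SE 0.24, adjusted p = 0.0034), and its difference was 0.77 with day 14 alone and 0.82 without HSC day 1 replicate 2.

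Between day 7 and day 14, each with 1 array and hence no replicate check, Itgb3 went from 1901 to 629, on either side of its day 1 values of 1167 and 1079. Merged, it differed from day 1 by -0.02 (SE 0.35, adjusted p = 0.97). Itga9 read 2970 and 3399 at day 1, 2785 at day 7 and 1347 at day 14. Its merged difference was -0.69 (adjusted p = 0.046), below the minimum, and with day 14 alone the difference was -1.19. Itga6 read 341 and 271, then 488 and 709, a merged difference of 0.80 (adjusted p = 0.0024), below the minimum, and 1.03 with day 14 alone. A difference with 1 array of day 14 takes its spread from the other groups, so no p-value is given for it. The day 14 array read 0.218 times the day 7 array for Itga4, 0.331 for Itgb3, 0.377 for Itga2 and 0.483 for Itga9, against 1.07 for Itga8 and 1.15 for Itgb5.

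**Figure D4:**
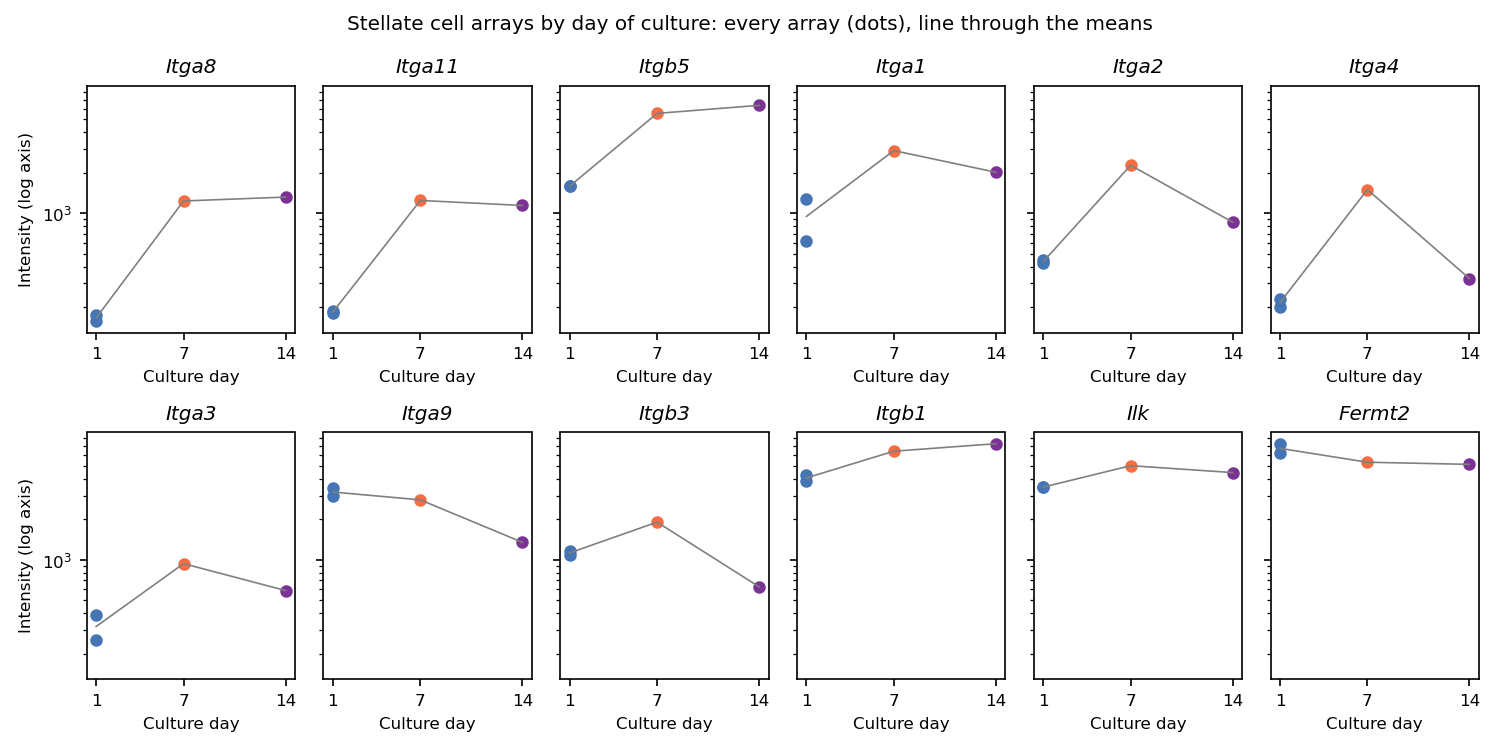
Intensity on a log axis against day of culture for 12 genes in HSC, with a dot for each array (2 at day 1, 1 at day 7, 1 at day 14) and a line through the means. Itga8, Itga11 and Itgb5 stay high at day 14, while Itga4 runs from 1497 at day 7 to 326 at day 14 and Itgb3 from 1901 to 629.

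The common subunits and linkers moved less. Itgb1 read 3864 and 4246 at day 1, 6409 at day 7 and 7286 at day 14, with no overlap, and its difference of 0.74 (SE 0.095, adjusted p = 5.4e-05) was below the minimum. Itga5 read 5958 and 5966, then 8784 and 9582, a difference of 0.61 (adjusted p = 0.0067). Ilk differed by 0.44, Tln1 by 0.49 and Tln2 by 0.34, with adjusted p = 0.0029, 0.0074 and 0.021. Itgav differed by 0.31 (SE 0.20, adjusted p = 0.23). Fermt2 read 6259 and 7196 at day 1, 5305 at day 7 and 5115 at day 14, a difference of -0.36 (adjusted p = 0.027).

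Other genes of integrin adhesion were read from lists written from textbook knowledge. Of 42 adhesion adaptors and kinases 38 were tested. In Kupffer cells 4 were higher than in each other population (background 6.53%), namely Rasgrp2 at 2.75, the talin recruiter Apbb1ip at 2.53, the blood cell parvin Parvg at 2.08 and the kinase Ptk2b at 1.89 above the nearest population. In the same cells 6 were lower (background 2.28%), among them Tns1 at -3.14, the talin binder Vcl at -2.76, Tes at -2.68 and the parvin Parva at -2.40. Vcl read 115 to 120 in Kupffer cells, 1085 to 1425 in LSEC, 1850 to 2438 in hepatocytes and 2943 and 3438 in 1-day HSC. In 1-day HSC 7 were higher (background 2.59%), including Enah at 1.79, Lpp at 1.66, Tns3 at 1.59 and Tgfb1i1 at 1.52. In long culture 5 rose, Ptk2b by 1.67, Apbb1ip by 1.64, Lims2 by 1.41, Kank1 by 1.27 and Vcl by 1.22 (background 5.52%), and 0 fell (4.27%), while Enah at 0.95 and Tes at 0.86 were below the minimum.

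Of 40 ligands and counter-receptors of integrins, 32 were tested between populations. In hepatocytes 5 were higher (background 6.80%), including the plasma ligands Fgg at 4.51, Vtn at 4.51 and Fgb at 3.90 and the cadherin Cdh1 at 3.57, and 2, Tgfb1 (-2.97) and Vcam1 (-2.55), were lower (background 2.72%). In LSEC 3 were higher (background 2.35%), the laminin chains Lama4 at 1.89 and Lama5 at 1.11 and the leukocyte ligand Icam2 at 1.07. In 1-day HSC 9 were higher (background 2.59%), with Tnc at 4.46, Postn at 4.36, Thbs1 at 3.52 and Tgfb3 at 3.27. In Kupffer cells 0 were higher (background 6.53%) and 3, Nid1, Lamc1 and Mfge8, were lower (2.28%). In long culture 13 of 33 rose (background 5.52%) and 3 fell (4.27%). The rises included Thbs2 by 3.20, Col1a1 by 3.17, Col1a2 by 3.04 and Col3a1 by 2.39. The genes that fell were Vtn (-1.53), Fgb (-2.12) and Fgg, which encode plasma proteins of hepatocytes. The hepatocyte marker sums, of which Fgg is itself a part, were also lower on these arrays. The part of hepatocyte signal in these falls was not tested. The median of the list was 0.64, against -0.04 over all genes.

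Of 15 tetraspanins and membrane partners 13 were tested. Kupffer cells were higher in 2 (background 6.53%), the leukocyte tetraspanins Cd53 (3.05) and Cd37 (2.84), and lower in 1 (2.28%), Cd63 (-2.21). LSEC were higher in 1 (2.35%), the caveolin gene Cav1, by 1.64 over the nearest population, and hepatocytes lower in 1 (2.72%), Cd47 (-1.04). In long culture Cav1 rose by 2.07 (background 5.52%) and Cd82 fell by 1.24 (4.27%), while Slc3a2 (-0.92) and Cd63 (0.64) were below the minimum.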

How the data were processed

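Total RNA of 13 liver cell samples was labelled and hybridised to Affymetrix arrays. The authors deposited 1 table of summarised probe-set intensity on a linear scale (10.6 to 28854, 25194 probe sets). Per the submitters' processing notes, Affymetrix Expression Console and MAS5 version 5.0 were used, without role or order. No source used here states the background correction, normalization or build.

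Of the probe sets, 21181 carried 1 gene symbol (19537 genes), 1379 several and 2634 none, and the latter 2 kinds were left out. Where a gene had several probe sets, the brightest on average stood for it. Genes above the pooled median (224.5) on at least 2 arrays of a fit were kept. Values were taken as log2(intensity + 83), 83 being the pooled 20th percentile, which understates differences of dim genes.

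Fits used limma 3.58.1 in R 4.3.3, with 7 residual degrees of freedom for the populations and 8 for the culture comparison, and two-sided tests. They were also run on simulated data with independent noise. Such data cannot check the merging of day 7 and day 14 or whether arrays came from separate animals. The members, lists, named genes and tests were chosen with earlier results of these data known. All members were to be named, with every array's value for those called, and up to 4 called and 2 uncalled genes of each list. The titles call arrays biological replicates. No source used here says whether separate animals were used, so p-values measure the spread between these arrays, which may be technical, and their number limits the precision. Alternatives were another pseudocount, filter, normalization, probe-set rule, variance trend, replicate block and leaving out each array.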

Additional observations from a re-analysis of the deposited data

How the results depend on the processing

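The called member contrasts numbered 77, and over all alternatives 1344 recomputed values kept their call, 44 kept their direction but not the call, and 0 reversed. Of the 44, 16 came with the pooled median as pseudocount. Dropping the filter, averaging probe sets and the intensity trend each kept all 77, but they leave the called differences themselves unchanged. So does leaving out an array of a population outside a contrast. The tally is therefore no measure of how robust the calls are. The 77 include genes that passed the filter only through 1 population, such as Itgal and Itga4. Where Itga8 or Tln2 did not pass the filter, they gave no value and are not among the 44. Itgad alone had a second probe set with 1 symbol, and it was not called. The probe-set alternative therefore left the intensities of the called members as they were. With the pooled median as pseudocount, LSEC and 1-day HSC differed in 5 members rather than 9, and 1 member rather than 2 was higher in LSEC. Leaving out 1 array at a time gave 1 to 2 members higher in LSEC and 1 to 4 higher in 1-day HSC, where an arm left with 1 array was assumed to vary like the others. Itga8 and Tln2 left these counts in part because fewer arrays passed the filter. With day 14 alone, 1 member was lower in long culture (Itga9), in a fit whose spread came from the other groups. With the pooled 60th percentile as limit, 4 pairs were present in hepatocytes rather than 9, 7 rather than 12 in 1-day HSC, and 11 rather than 17 at day 14. Same-numbered arrays of different groups deviated from their group means with correlations from -0.12 to 0.13, and other-numbered ones from -0.14 to 0.18. With 2 or 3 arrays per group, these values cannot tell whether the numbers pair the arrays. With the replicate number as a block, 7 members were higher in Kupffer cells, 2 in LSEC and 2 in 1-day HSC, and 3 contrasts lost their call. The smallest signals had no detection calls, so absence of a dim transcript cannot be stated.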
